A study of Oryctolagus cuniculus with 12 samples.

Results

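Fluoropyrimidines such as 5-fluorouracil (5-Fu) act only after cells have converted them into nucleotides, and 10 genes that activate them, degrade them or encode their targets were followed in rabbit ear scars, some of them treated with 5-Fu. The list was drawn up by function, with earlier results of these data known. Of the 10 listed symbols, 8 (UPP1, UMPS, UCK2, TYMP, DPYD, TK1, RRM1 and RRM2) had a row of their own among the 29587 genes measured, of which 14494 carried a symbol. Of these 8, 6 had a mean level of at least 1 FPKM (fragments per gene length and library size) and entered the tests with the 13287 genes that reached it, whereas TYMP and DPYD fell short and are given as reads. TYMS and DUT had no row under their symbol, and rows described in the table as thymidylate synthase and as dUTPase are given by Ensembl identifier as neighbours of the list and not as members.

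5-Fu enters the nucleotide pool by a handful of routes. Orotate phosphoribosyltransferase, part of the UMPS protein, joins it directly to a ribose phosphate, while uridine phosphorylase (UPP1) followed by uridine-cytidine kinase (UCK2) leads to the same fluorinated nucleotide, which can be built into RNA. Thymidine phosphorylase (TYMP) followed by thymidine kinase (TK1) gives fluorodeoxyuridine monophosphate, the inhibitor of thymidylate synthase (TYMS). Ribonucleotide reductase, made of the large subunit RRM1 and the small subunit RRM2, turns ribonucleotides into deoxyribonucleotides, and dUTPase (DUT) removes uracil nucleotides from the DNA precursor pool. Dihydropyrimidine dehydrogenase (DPYD) starts the breakdown of uracil, thymine and 5-Fu, and most of a dose is lost this way in the liver. TK1 and RRM2 are made mainly in cells that copy their DNA, so in tissue their mRNA also follows cell division.

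Bulk RNA-seq covered 12 samples from wild-type (WT) female rabbits aged 10 to 12 weeks. The 4 groups had 3 rabbits each and gave 3 samples each, described as biologically independent. Untreated animals gave normal ear skin (NS) and hypertrophic scar (HS). The drug-loaded MNs group was scar that received 1 microneedle patch per lesion, whose gelatin methacryloyl tips carried a 5-Fu acetic acid prodrug on a peptide cleaved by reactive oxygen species, and the 5-Fu injection group was scar that received 0.1 mL of 5-Fu (120 μg) per lesion. Both treatments were given on days 22, 29 and 36, and the full-thickness ear was harvested from all groups on day 43. The scar model starts from wounds that remove epidermis, dermis and perichondrium on the ventral ear, the lesion or lesions behind a sample are not stated, and values describe the tissue at harvest and not during drug exposure.

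Reads on genes, counted back from the deposited values, ranged from 10521472 to 14043667 per sample. Skin markers were present in all groups. The summed level of 6 of 7 listed fibroblast markers with a row (COL1A1, DCN and others) was 2469 to 3445 FPKM in NS against 37456 to 48774 in HS. Treated scars lay between, at 18949 to 27190 FPKM with drug-loaded MNs and 5058 to 26796 after 5-Fu injection, where replicate 2 held the highest value and stood apart from replicates 1 and 3. That of 5 of 7 keratinocyte markers was 2112 to 3672, 1296 to 1914, 3647 to 8605 and 2733 to 5337 FPKM in the same order of groups. None of these markers was at 0 in any group.

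Groups were compared with limma on log2(FPKM + 1), and a gene was called where its Benjamini-Hochberg adjusted p over all genes tested was under 0.05 and its log2 fold change was above 1 in size. The added 1 makes log2 fold changes smaller than those of the FPKM values, most of all for genes at low levels. The plot of levels by sample shows the 6 genes tested.

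**Figure D1:**
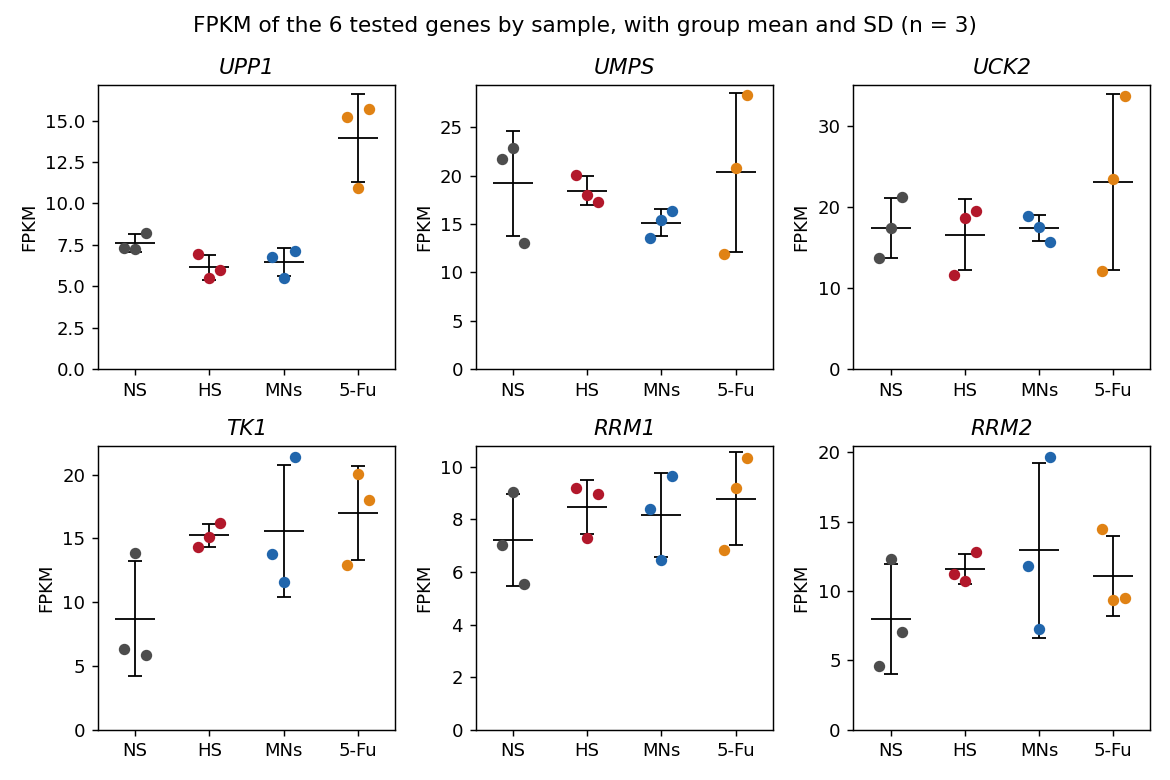
FPKM (y axis, linear, from 0) of the 6 tested genes in each of the 12 samples, grouped on the x axis as NS, HS, drug-loaded MNs (MNs) and 5-Fu injection (5-Fu); points are samples, the wide bar is the group mean and the error bar 1 SD (n = 3). UPP1 lay at 10.9 to 15.7 FPKM in the 5-Fu injection group, above the other 9 samples at 5.48 to 8.22, and the remaining genes overlapped between HS and the 5-Fu injection group.

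UPP1, the uridine phosphorylase gene, was the only one of the 6 tested genes called in any comparison, and it was called only between 5-Fu injection and HS. Its locus (ENSOCUG00000014902) lies on the plus strand of scaffold GL018745 from base 170344 to base 207226 in the deposited annotation. UPP1 was at 6.96, 5.48 and 5.97 FPKM in HS replicates 1, 2 and 3. After 5-Fu injection it was at 15.2, 10.9 and 15.7 FPKM, so its lowest value there, in replicate 2, was above the highest value in HS. Scars under drug-loaded MNs had it at 6.79, 5.51 and 7.11 FPKM, within reach of the HS values, and in NS it was at 7.31, 7.26 and 8.22 FPKM. These levels rested on 126 to 152 reads per sample in HS, 227 to 385 after 5-Fu injection, 135 to 165 with drug-loaded MNs and 191 to 195 in NS.

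UPP1 rose 2.27-fold in mean FPKM from HS (6.14 ± 0.752, SD, n = 3) to 5-Fu injection (14.0 ± 2.65, SD, n = 3). The log2 fold change was 1.06 (SE 0.17, 95% interval 0.69 to 1.43), with a limma adjusted p of 0.0214. That made 1 of 6 tested genes, against 2.29% of all genes tested in this comparison, and the same gene was the only one of the 6 past an unadjusted p of 0.05 and the only one whose groups did not overlap, where all genes gave 26.0% and 30.3%. The call depended on the samples in the fit. With HS and 5-Fu injection alone in the fit the adjusted p was 0.0967 at the same fold change, and no gene of the 13287 was called. Leaving out HS replicate 1, 2 or 3 gave an adjusted p of 0.0553, 0.0608 or 0.0828, and leaving out 5-Fu injection replicate 1 or 3 gave 0.0641 or 0.0869. Without 5-Fu injection replicate 2, the sample with the high fibroblast markers, the log2 fold change was 1.21 with an adjusted p of 0.00404. In bulk tissue, more cells that make UPP1 and more UPP1 mRNA per cell cannot be told apart.

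The levels of UPP1 in the remaining comparisons did not pass the test. Between drug-loaded MNs and HS the log2 fold change was 0.06 (95% interval −0.31 to 0.43, limma adjusted p = 0.938), an interval that leaves out a doubling but not smaller differences. Set directly against 5-Fu injection, the drug-loaded MNs group had a log2 fold change of −0.99 (SE 0.17, 95% interval −1.36 to −0.62), and its 3 values lay below the 3 injected ones, but the adjusted p over all genes was 0.161. Without 5-Fu injection replicate 2 the same difference was −1.15 with an adjusted p of 0.0478 and was called. Against NS, 5-Fu injection was higher in each sample, with a log2 fold change of 0.78 (SE 0.17) and an adjusted p of 0.134. HS lay below NS in each sample at −0.27 (95% interval −0.64 to 0.10, adjusted p = 0.371). The FPKM values were already scaled between samples by the authors, and rescaled to total reads on genes the HS to NS value of UPP1 was −0.59 (adjusted p = 0.0421), under the fold threshold and beside a median over all genes of −0.33 on that scale. In order of mean level, 5-Fu injection came first and NS second, each apart from the group after it, and drug-loaded MNs and HS overlapped.

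UCK2, the kinase that follows UPP1 on this route, was among the most highly expressed of the 8 genes, at a mean of 18.6 FPKM over the 12 samples, and its levels overlapped between all groups. It lies on the minus strand of chromosome 13 from base 26987552 to base 27061403 (ENSOCUG00000008446). The samples read 13.8, 17.4 and 21.2 FPKM in NS, 11.6, 18.7 and 19.5 in HS, and 18.9, 17.5 and 15.7 with drug-loaded MNs. After 5-Fu injection they read 12.0, 23.5 and 33.7 FPKM, from near the lowest value of the series to its highest. Between 5-Fu injection and HS the log2 fold change was 0.38 (95% interval −0.33 to 1.08, limma adjusted p = 0.483), so neither no difference nor a doubling was outside the interval. Between drug-loaded MNs and HS it was 0.09 (95% interval −0.61 to 0.80, adjusted p = 0.957).

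UMPS, which joins 5-Fu to ribose phosphate directly and normally makes UMP from orotate, had a mean of 18.3 FPKM. It lies on the minus strand of chromosome 14 from base 94287449 to base 94306496 (ENSOCUG00000000412). In HS it was at 20.1, 18.0 and 17.2 FPKM and with drug-loaded MNs at 13.6, 15.5 and 16.3, so every treated sample was below every HS sample. The difference did not pass the test (log2 fold change −0.27, 95% interval −0.89 to 0.34, limma adjusted p = 0.828). UMPS was the only one of the 6 genes whose drug-loaded MNs and HS values did not overlap, where 18.9% of all genes did not. NS spread from 13.0 to 22.9 FPKM and the 5-Fu injection group from 11.9 to 28.3, and both spanned the HS values. Between 5-Fu injection and HS the log2 fold change was 0.06 (95% interval −0.56 to 0.67, adjusted p = 0.918). In the injection group replicate 1 was lowest and replicate 3 highest for UMPS as for UCK2.

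The ratio of UPP1 to UMPS mRNA, taken per sample in FPKM, was 0.305 to 0.347 in HS and 0.524 to 1.28 after 5-Fu injection. Activity of the routes these enzymes serve was not measured. The ratio was 0.357 to 0.501 with drug-loaded MNs and 0.317 to 0.633 in NS. The HS ratios lay below those of both treated groups, with drug-loaded MNs by a narrow margin, and overlapped with NS. The widest spread was in the injection group.

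TYMP, the gene at the entry to the deoxyribose route, was close to or below what this depth could measure. DPYD, at the entry to degradation, was low but had reads in all 12 samples. TYMP (ENSOCUG00000001408, scaffold GL019140, plus strand, base 160110 to base 163510) had no read in any of the 9 samples of NS, HS and 5-Fu injection. A count of 0 allows up to 3 reads, which is 0.137 to 0.174 FPKM for this gene, counting error only. The drug-loaded MNs samples held 1, 2 and 3 reads, or 0.0496, 0.0984 and 0.166 FPKM. All groups were thus at or under that limit, and no fold change is given.

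DPYD (ENSOCUG00000008610) spans base 66456505 to base 67430660 on the plus strand of chromosome 13 and collected 218 reads over the 12 samples. NS samples held 20, 8 and 35 reads (0.465, 0.186 and 0.901 FPKM) and HS samples 1, 16 and 27 (0.0280, 0.425 and 0.665 FPKM). Drug-loaded MNs samples held 15, 18 and 22 reads (0.377, 0.449 and 0.616 FPKM) and 5-Fu injection samples 23, 6 and 27 (0.556, 0.176 and 0.675 FPKM). All groups overlapped, with HS replicate 1 lowest at a single read. With no filter on low values, limma called neither gene in any of the 6 comparisons. The smallest adjusted p was 0.792 for DPYD and 0.194 for TYMP, whose unadjusted p of 0.00346 between drug-loaded MNs and each other group rests on those 6 reads. The plot of reads shows both genes.

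**Figure D2:**
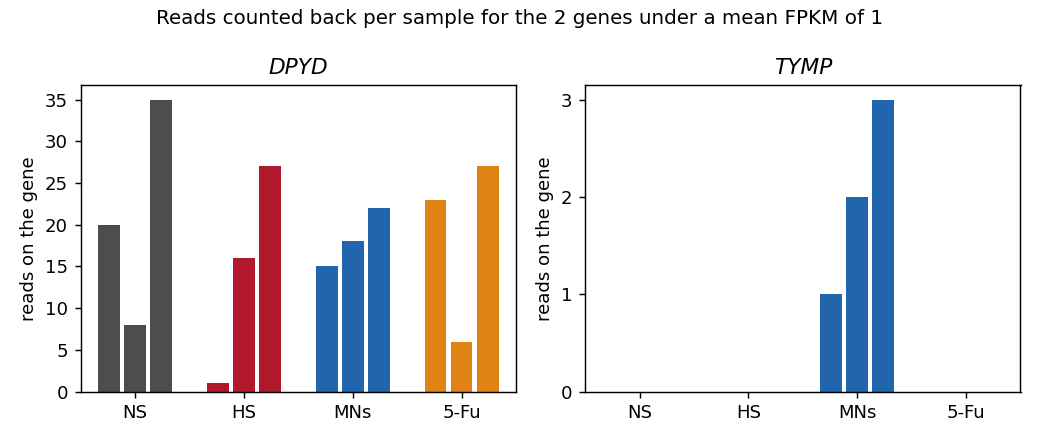
Reads counted back per sample (y axis, from 0) for DPYD and TYMP, the 2 genes under a mean of 1 FPKM; each bar is a sample, with 3 bars per group on the x axis. DPYD bars overlap between all groups, from 1 to 35 reads, and TYMP has 1, 2 and 3 reads in the drug-loaded MNs samples and 0 elsewhere.

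TK1, the cytosolic thymidine kinase that salvages thymidine in dividing cells, came nearest to a difference between scar and normal skin. Its locus (ENSOCUG00000010046) lies on the minus strand of scaffold GL019309 from base 12534 to base 23801. NS replicates 1 and 3 were at 6.30 and 5.89 FPKM and NS replicate 2 was at 13.9. HS replicates were at 14.4, 15.1 and 16.2 FPKM, all above the highest NS value by a narrow margin. Drug-loaded MNs samples were at 13.8, 11.6 and 21.4 FPKM and 5-Fu injection samples at 12.9, 20.0 and 18.0, so both treated groups reached below and above the HS range.

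Between HS and NS the log2 fold change of TK1 was 0.84 (SE 0.30, 95% interval 0.17 to 1.50) with a limma adjusted p of 0.123, from an unadjusted p of 0.0180, so it was not called. Without NS replicate 2 it was 1.19 with an adjusted p of 0.0291, and TK1 was then called. Rescaled to total reads it was 0.50 (adjusted p = 0.241). None of the 6 genes was called between HS and NS, by limma on FPKM or by limma voom on the reads, against 5.00% of all genes. At an unadjusted p under 0.05 there was 1 of 6, TK1, against 23.4% of all genes, and 2 of 6, TK1 higher and UPP1 lower, had groups that did not overlap, against 33.3%. The median log2 fold change of the 6 genes was 0.10, and that of all genes was −0.01.

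Neither treatment differed from HS in TK1 by a margin that passed the test. The log2 fold change was −0.01 for drug-loaded MNs (95% interval −0.68 to 0.65, limma adjusted p = 0.995) and 0.13 for 5-Fu injection (95% interval −0.53 to 0.79, adjusted p = 0.816). Against NS it was 0.82 for drug-loaded MNs (adjusted p = 0.271) and 0.97 for 5-Fu injection (adjusted p = 0.220), both unadjusted below 0.05 and both with NS replicate 2 inside the treated range.

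RRM2, the small subunit of ribonucleotide reductase that rises with DNA synthesis, did not pass the test in any comparison. It lies on the plus strand of scaffold GL018795 from base 26975 to base 33933 (ENSOCUG00000005820). NS samples were at 4.59, 12.3 and 7.07 FPKM, again with replicate 2 highest, and HS samples at 11.2, 10.8 and 12.8. Drug-loaded MNs samples were at 11.8, 7.29 and 19.7 FPKM and 5-Fu injection samples at 14.4, 9.34 and 9.48. The log2 fold change was 0.57 for HS over NS (95% interval −0.21 to 1.36, limma adjusted p = 0.370), 0.05 for drug-loaded MNs over HS (95% interval −0.73 to 0.83) and −0.08 for 5-Fu injection over HS (95% interval −0.86 to 0.70).

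RRM1, the large subunit and the more stable of the pair through the cell cycle, had the narrowest range of the tested genes, from 5.56 to 10.3 FPKM over all samples. It lies on the plus strand of chromosome 1 from base 145017968 to base 145085351 (ENSOCUG00000013372). Group means were 7.21 ± 1.74 FPKM in NS, 8.47 ± 1.04 in HS, 8.17 ± 1.60 with drug-loaded MNs and 8.78 ± 1.77 after 5-Fu injection (SD, n = 3 each), and all groups overlapped. The ratio of RRM2 to RRM1 in FPKM was 0.654 to 1.37 in NS and 1.22 to 1.48 in HS. It was 1.13 to 2.04 with drug-loaded MNs and 0.919 to 2.11 after 5-Fu injection, so the ratios overlapped as well.

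The longer of the rows described as thymidylate synthase, the enzyme that fluorodeoxyuridine monophosphate blocks, did not differ beyond the spread of the samples. ENSOCUG00000008667 (chromosome 9, minus strand, base 61683917 to base 61695471) was at 11.0, 12.1 and 5.48 FPKM in NS and 10.8, 11.7 and 12.4 in HS. It was at 10.1, 10.1 and 13.2 FPKM with drug-loaded MNs and 9.09, 14.5 and 14.5 after 5-Fu injection. The log2 fold change was 0.33 for HS over NS (95% interval −0.25 to 0.91), −0.07 for drug-loaded MNs over HS (95% interval −0.65 to 0.51) and 0.09 for 5-Fu injection over HS (95% interval −0.49 to 0.67), with limma adjusted p-values of 0.497, 0.961 and 0.855. A short second row of the same description, ENSOCUG00000037631 on scaffold GL018783, held 2 to 19 reads per sample. It had 3, 5 and 2 reads in HS and 6, 19 and 9 after 5-Fu injection, so these groups were apart, as for 30.3% of all genes. The difference of log2(FPKM + 1) was 1.05 (95% interval 0.24 to 1.87), with a limma adjusted p of 0.111 from an unadjusted p of 0.0159. Mean FPKM was 0.989 in HS and 3.45 after 5-Fu injection, a 3.49-fold ratio on few reads. With drug-loaded MNs it had 4, 5 and 4 reads, below the injected samples (−0.85, adjusted p = 0.320). The sequences of these rows were not compared. How reads matching more than 1 row were counted is not given in the sources used here, which leaves each row's level uncertain.

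The row described as dUTPase, which keeps dUTP and its fluorinated form out of DNA, had a higher mean level, 31.9 FPKM, than any of the 8 genes. ENSOCUG00000003862 (chromosome 17, minus strand, base 24144269 to base 24157549) was at 27.6, 29.0 and 25.3 FPKM in NS, 26.2, 30.9 and 35.1 in HS, 27.3, 28.3 and 47.1 with drug-loaded MNs and 38.3, 28.8 and 39.1 after 5-Fu injection. Each group overlapped with HS, with log2 fold changes of 0.16 for HS over NS, 0.12 for drug-loaded MNs over HS and 0.20 for 5-Fu injection over HS. The limma adjusted p-values were 0.690, 0.907 and 0.587. A shorter row of that description on chromosome 15, ENSOCUG00000027869, held 5 to 56 reads per sample.

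Taken as a group of 6, the tested genes gave few calls in the comparisons of treated scars, as all genes did. Between drug-loaded MNs and HS none was called by limma on FPKM or by limma voom, against 0.00753% of all genes, and none had an unadjusted p under 0.05, against 8.90%. With the treatments set against each other none was called by either method, against 0.00% of all genes. UPP1 alone had an unadjusted p under 0.05 and groups apart there, where all genes gave 15.1% and 17.1%. Between drug-loaded MNs and NS none was called by either method, against 0.873%. TK1 alone had an unadjusted p under 0.05 (12.9% of all genes), and UPP1 alone, lower with drug-loaded MNs, had groups apart (20.6%). Between 5-Fu injection and NS none was called by either method, against 0.00753%. UPP1 and TK1 had an unadjusted p under 0.05 (14.9% of all genes), and UPP1 alone had groups apart (18.8%). Comparisons that share HS or NS samples are not independent of each other. The counts over all genes behind these shares changed when a sample was left out, which also leaves fewer samples in its group. Between 5-Fu injection and HS the 304 genes called became 9, 0 and 0 without HS replicate 1, 2 or 3, and 16, 803 and 12 without 5-Fu injection replicate 1, 2 or 3. They became 158 without NS replicate 1 and 169 without drug-loaded MNs replicate 2. Between drug-loaded MNs and NS the 116 became 6, 0 and 113 without NS replicate 1, 2 or 3. They became 14, 24 and 4 without drug-loaded MNs replicate 1, 2 or 3. They became 69 and 66 without HS replicate 2 or 3 and 176 without 5-Fu injection replicate 2. Between HS and NS the 665 became 382, 476 and 653 without NS replicate 1, 2 or 3. They became 419, 440 and 450 without HS replicate 1, 2 or 3.

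**Figure D3:**
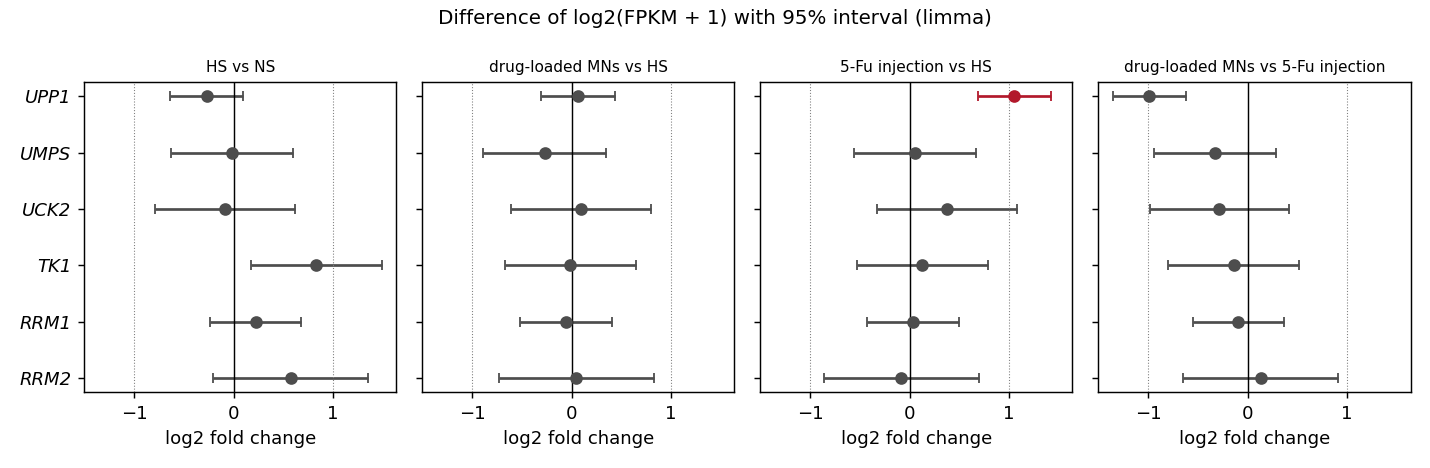
Difference of group means of log2(FPKM + 1) (x axis, log2 scale) for the 6 tested genes in 4 comparisons, one panel each; points are limma estimates, bars the 95% intervals, dotted lines a log2 fold change of 1 in either direction, and red marks a called gene. UPP1 at 1.06 for 5-Fu injection over HS is the only red point, and at −0.99 for drug-loaded MNs over 5-Fu injection its interval also stays clear of 0.

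Other genes of the pathway were taken from lists drawn up by function. Of 13 tested genes of uracil and pyrimidine metabolism (18 listed), 1 was called higher in HS than in NS and none lower. None was called between HS and either treatment. Of all genes, 5.00% were called between HS and NS, 0.00753% between drug-loaded MNs and HS and 2.29% between 5-Fu injection and HS. Between drug-loaded MNs and NS 0.873% were called. At an unadjusted p under 0.05 there were 6 of the 13 between HS and NS, 6 between HS and 5-Fu injection and 2 between HS and drug-loaded MNs, where all genes gave 23.4%, 26.0% and 8.90%. Calls by limma voom on the reads were limited to ENTPD3, in HS over NS. The gene called was ENTPD3, which splits phosphates from extracellular nucleotides. It was at 1.55 to 2.19 FPKM in NS and 3.27 to 7.46 in HS (log2 fold change 1.19, limma adjusted p = 0.0201), and was also called between drug-loaded MNs and NS (1.31, adjusted p = 0.0434). The HS call was lost in 6 of 20 alternatives, among them leaving out NS replicate 1 or 2 or HS replicate 2 or 3, with adjusted p up to 0.0842, and the drug-loaded MNs call was lost in 13 of 20, with adjusted p up to 0.164. CMPK1, the kinase that acts on UMP and CMP after UMPS and UCK2, was at 33.3 to 41.7 FPKM in NS and 55.8 to 65.4 in HS, a log2 fold change of 0.62 with an adjusted p of 0.0259 that missed the fold threshold. After 5-Fu injection CMPK1 was at 37.8 to 46.7 FPKM, below every HS sample (−0.54, adjusted p = 0.0560). Of all genes, 30.3% had these groups apart. The median log2 fold change of this list was 0.31 between HS and NS and 0.04 between 5-Fu injection and HS, where the medians over all genes were −0.01 and 0.02.

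Of 7 tested genes of deoxynucleotide supply (9 listed), none was called in any comparison by limma on FPKM, and 1, RRM2B, by limma voom in HS below NS. An unadjusted p under 0.05 was reached by 2 between HS and NS and by 0 between HS and either treatment. Over all genes it was reached by 23.4% for HS against NS, 8.90% for drug-loaded MNs against HS and 26.0% for 5-Fu injection against HS. Calls by limma on FPKM covered 5.00%, 0.00753% and 2.29% of all genes in the same order. DCTD, which turns dCMP into dUMP, the substrate of thymidylate synthase, was at 6.39 to 8.29 FPKM in NS and 11.5 to 14.4 in HS (log2 fold change 0.70, adjusted p = 0.0230). RRM2B, the form of the small reductase subunit that serves cells outside S phase, was at 4.34 to 5.90 FPKM in NS and 2.19 to 2.48 in HS (−0.89, adjusted p = 0.0287). HS and NS were apart for both genes, as for 33.3% of all genes, and both missed the fold threshold on this scale. They were the only genes of the list with these groups apart, 1 higher and 1 lower. Both were named by their small p, so groups apart follow in part from the choice. Of 6 tested genes of nucleoside and fluoropyrimidine transport (11 listed), none was called between any groups by limma on FPKM or by limma voom. The exporter gene ABCC5 was the only one with an unadjusted p under 0.05, in HS against NS and against 5-Fu injection. The shares over all genes there were 23.4% and 26.0%. SLC29A1, the main equilibrative nucleoside carrier of most tissues, was at 35.1 to 62.8 FPKM in HS and 36.3 to 53.5 after 5-Fu injection.

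Folate cofactors feed the thymidylate synthase reaction, and of 11 tested genes of the folate cycle (15 listed) 1 was called, in both directions. Of all genes, 5.00% were called between HS and NS and 2.29% between 5-Fu injection and HS. ALDH1L2, a mitochondrial enzyme that oxidises formyl-tetrahydrofolate, was at 0.517 to 1.08 FPKM in NS and 3.16 to 5.70 in HS (log2 fold change 1.57, limma adjusted p = 0.00877), and this call held in all 20 alternatives run. After 5-Fu injection it was at 0.504 to 1.65 FPKM, lower than in HS (−1.45, adjusted p = 0.0280). That call was lost in 8 of 20 alternatives, among them leaving out any HS replicate or 5-Fu injection replicate 1 or 3, with adjusted p up to 0.102. With drug-loaded MNs ALDH1L2 was at 1.98 to 4.00 FPKM and was not called (−0.46, adjusted p = 0.668).

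Uracil and fluorouracil that reach DNA are cut out by glycosylases, and fluorouracil in RNA acts on pseudouridine synthases and the RNA exosome. Of 12 tested genes of these kinds (14 listed), none was called in any comparison by limma on FPKM or by limma voom. Between HS and NS 1 had an unadjusted p under 0.05, and between 5-Fu injection and HS 2 had. The shares over all genes were 23.4% and 26.0%. Limma on FPKM called 5.00% and 2.29% of all genes in these comparisons. Groups were apart for 1 higher and 3 lower of the 12 between HS and NS, against 33.3% of all genes. Between 5-Fu injection and HS they were apart for 2 higher and 1 lower, against 30.3%. TDG, a glycosylase that removes uracil and thymine opposite guanine, was at 13.0 to 14.7 FPKM in NS, 20.2 to 22.9 in HS and 13.5 to 15.2 after 5-Fu injection. Its log2 fold change was 0.61 for HS over NS (adjusted p = 0.0122) and −0.56 for 5-Fu injection over HS (adjusted p = 0.0337), with groups apart in both and under the fold threshold in both. UNG, the main uracil glycosylase of replicating DNA, was at 9.62 to 11.2 FPKM in HS and 10.8 to 16.4 after 5-Fu injection (0.38, adjusted p = 0.308).

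Genes of S phase and mitosis give the background against which TK1 and RRM2 can be read. Of 18 tested (25 listed), 2 were called higher in HS than in NS and none lower, against 5.00% of all genes called. An unadjusted p under 0.05 was reached by 4 of the 18 in this comparison, all higher in HS, against 23.4% of all genes. Groups were apart for 6 higher and 1 lower, against 33.3%. CCNB2, a cyclin of mitosis, was at 4.81 to 6.40 FPKM in NS and 13.6 to 20.2 in HS (log2 fold change 1.41, limma adjusted p = 0.0340). TOP2A, the topoisomerase that untangles replicated DNA, was at 1.75 to 4.07 FPKM and 5.27 to 8.23 (1.08, adjusted p = 0.0488). The CCNB2 call was lost in 8 of 21 alternatives, among them leaving out any of the NS or HS replicates and limma voom, with adjusted p up to 0.122, and that of TOP2A in 13 of 20 alternatives, among them rescaling to total reads, with adjusted p up to 0.161. None of the 18 was called between HS and drug-loaded MNs or 5-Fu injection, nor between the treatments, by limma on FPKM or by limma voom. At an unadjusted p under 0.05 there was 1 for 5-Fu injection against HS, CCNE2, a cyclin of S phase entry. There were 0 for drug-loaded MNs against HS and between the treatments. All genes gave 26.0%, 8.90% and 15.1% in that order. The list's median log2 fold change was 0.22 for HS over NS, −0.02 for drug-loaded MNs over HS and 0.05 for 5-Fu injection over HS, and the median over all genes was −0.01, −0.02 and 0.02.

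The genes whose levels most resembled each of the 6 over the 12 samples were read from Pearson's r on log2(FPKM + 1). This is a description in which all points share libraries and scaling. The genes were picked by that likeness, so group differences they share with a member follow from the choice. TK1 was most like UBE2C (r = 0.96), CDK1 (0.94) and KIFC1 (0.93), which serve mitosis, and UBE2C differed between HS and NS by 1.03 on the log2 scale (limma adjusted p = 0.0947). RRM2 was most like LTA4H (0.88), BUB1B (0.86) and SDCCAG8 (0.84), of which BUB1B belongs to the mitotic checkpoint. Among the 6 genes themselves r was 0.81 for TK1 with RRM1, 0.74 for TK1 with RRM2 and 0.52 for RRM1 with RRM2. UPP1 had an r of 0.08 to 0.29 with the other 5.

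UPP1 was most like PLVAP (r = 0.94), PECAM1 (0.93) and LIN37 (0.93), of which the first pair are genes of endothelial cells. PLVAP was at 207 to 273 FPKM in HS and 343 to 510 after 5-Fu injection (log2 fold change 0.75, limma adjusted p = 0.0419, under the fold threshold). PECAM1 was at 66.9 to 89.3 and 103 to 132 FPKM (0.54, adjusted p = 0.0603). Both were picked by their r with UPP1, so a difference in its direction follows from that choice and is no separate result. The summed level of the 6 endothelial markers listed, PECAM1 among them and none at 0, was 291 to 377 FPKM in NS, 371 to 431 in HS, 337 to 423 with drug-loaded MNs and 403 to 481 after 5-Fu injection, so HS and 5-Fu injection overlapped. The median log2 fold change of these 6 for 5-Fu injection over HS was 0.05, with 5 higher and 1 lower. That of all genes was 0.02. The 10 macrophage and dendritic markers, also with none at 0, summed to 325 to 529 FPKM in HS and 282 to 649 after 5-Fu injection. The summed fibroblast level was lower and the summed keratinocyte level higher in every sample of 5-Fu injection than in HS, and likewise with drug-loaded MNs, where UPP1 overlapped with HS. Marker by marker, 5 of 6 fibroblast markers and 2 of 5 keratinocyte markers had groups apart between 5-Fu injection and HS. So had 1 of 6 endothelial markers, PECAM1, and among the 10 macrophage and dendritic markers 3 higher and 1 lower. The share over all genes was 30.3%. Of 7 T cell markers only 2 had a row, none at 0, and they summed to 3.36 to 11.9 FPKM in NS, 1.41 to 2.50 in HS, 3.46 to 5.69 with drug-loaded MNs and 6.80 to 39.9 after 5-Fu injection. Both had an unadjusted p under 0.05 and groups apart for 5-Fu injection against HS and against drug-loaded MNs, and neither was called by limma. All genes gave 26.0% and 30.3% against HS, and 15.1% and 17.1% against drug-loaded MNs. The part of any of these cell types in the UPP1 difference was not tested.

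**Figure D4:**
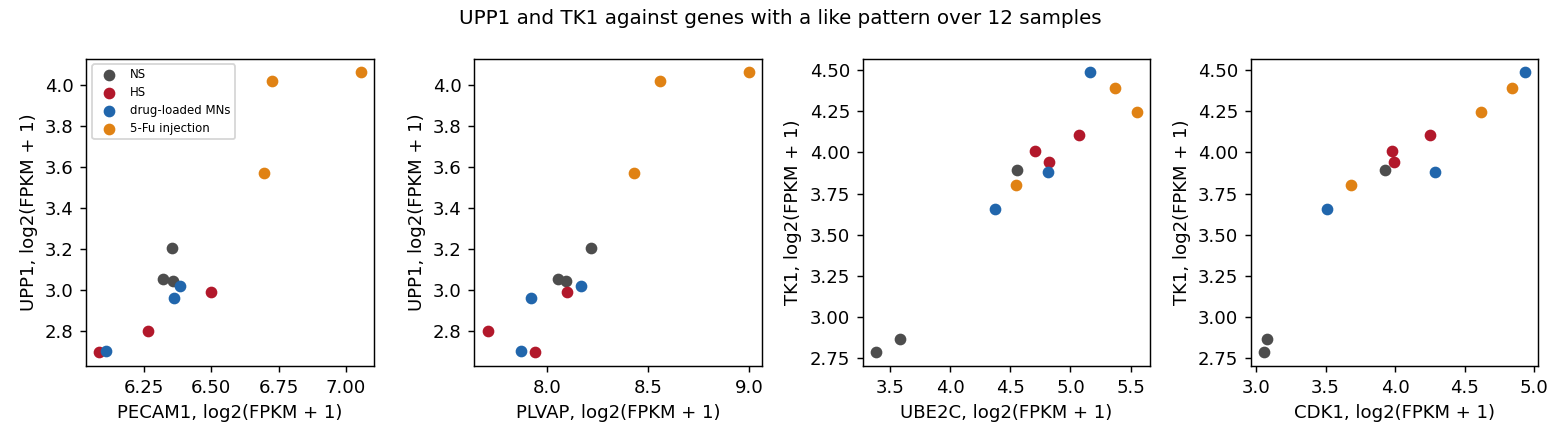
log2(FPKM + 1) of UPP1 against PECAM1 and PLVAP and of TK1 against UBE2C and CDK1, with 1 point per sample and 12 samples per panel, coloured by group. The 3 samples of 5-Fu injection lie at the upper right of both UPP1 panels, apart from the remaining 9, while in the TK1 panels 2 of the 3 NS samples lie at the lower left and the third among the scars. The genes on the x axes were picked by their r with UPP1 or TK1 in these samples, so a shared pattern follows from the choice.

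UMPS was most like ELAVL1, MRPL19 and NUP62 (r = 0.91 each), and UCK2 most like RAE1, TMEM243 and SLCO2A1 (0.91 each). RRM1 was most like MMP9 (0.93), STMP1 (0.89) and PDE7B (0.88). Of these 9 genes none was called between HS and NS or between 5-Fu injection and HS, and ELAVL1, for instance, ran from 38.1 to 56.5 FPKM after 5-Fu injection around the 45.9 to 47.6 of HS.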

How the data were processed

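Full-thickness ear RNA of 12 samples (poly-T selection) was quantified by the authors, who deposited FPKM values for 29587 genes and compared groups with DESeq2, which was not used here. Aligner, counter and genome build are not given in the sources used here. Multiplied by gene length, the values of each sample fell on multiples of a step (100% of them to 3 digits, tolerance 0.05 reads), so reads were counted back. They also carried a scaling between samples, since the library size behind them was 0.873 to 1.20 times the reads on genes.

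Groups came from the labels. limma 3.58.1 in R 4.3.3 was fitted to log2(FPKM + 1) of all 12 samples (trend, empirical Bayes), for the 13287 genes at a mean FPKM of 1 or more, with Benjamini-Hochberg adjustment in each of 6 comparisons and intervals at 95%. The procedure was tested on simulated data. Named genes were all members, up to 5 per list with the smallest p in HS vs NS or 5-Fu injection vs HS, and the 3 most alike per member. Members and lists were chosen with earlier results of these data known. Alternatives were a pseudocount of 0.1, no filter, a minimum mean of 5 FPKM, the compared groups alone, no trend, a replicate block, 2 other scalings, limma voom with TMM factors on reads, adjusted p alone, and each replicate left out. Same-numbered samples came from different rabbits. Protein and promoter sequences were not used here.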

Additional observations from a re-analysis of the deposited data

How the results depend on the processing

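Of the members called in each of 6 comparisons, the count changed only with the samples in the fit. The 1 gene called between 5-Fu injection and HS, UPP1, was not called with those groups alone (0 genes, adjusted p = 0.0967). With each replicate left out the count ran from 0 to 1, log2 fold change 0.97 to 1.21, and it was lost without any HS replicate or 5-Fu injection replicate 1 or 3. The count also ran from 0 to 1 between HS and NS (TK1 without NS replicate 2) and for the treatments against each other (UPP1 without 5-Fu injection replicate 2). In the remaining alternatives that kept all samples UPP1 stayed called, with adjusted p from 0.0198 to 0.0420. The replicate block gave UPP1 an adjusted p of 0.0420 and changed no other call of a member. Same-numbered samples came from different rabbits. The correlation of their deviations from the group means ran from −0.27 to 0.44, which with 3 samples a group cannot decide whether they shared a batch. Over all genes the block took the calls between 5-Fu injection and HS from 304 to 99. Between drug-loaded MNs and NS it took them from 116 to 23. Rescaling to total reads, which moved the median over all genes to −0.33 for HS over NS, turned the sign of RRM1 between HS and NS (−0.10), drug-loaded MNs and HS (0.076) and drug-loaded MNs and NS (−0.024), of TK1 between drug-loaded MNs and HS (0.13), of RRM2 between 5-Fu injection and HS (0.043), of UCK2 between NS and drug-loaded MNs (−0.19), and of UMPS between 5-Fu injection and NS (−0.18). Quantile normalization and limma voom put TK1 between drug-loaded MNs and HS at 0.00136 and 0.00320. None of these was called. Leaving out 1 replicate also turned signs near 0. For 5-Fu injection over HS the ranges were −0.077 to 0.19 (RRM1), −0.27 to 0.017 (RRM2) and −0.21 to 0.38 (UMPS). For drug-loaded MNs over HS they were −0.17 to 0.085 (RRM1), −0.29 to 0.37 (RRM2), −0.25 to 0.17 (TK1), −0.13 to 0.22 (UCK2) and −0.0023 to 0.16 (UPP1). For drug-loaded MNs over 5-Fu injection they were −0.24 to 0.048 (RRM1), −0.20 to 0.46 (RRM2), −0.38 to 0.036 (TK1) and −0.67 to 0.036 (UCK2). For 5-Fu injection over NS they were −0.026 to 0.68 (UCK2) and −0.23 to 0.36 (UMPS), for HS over NS −0.24 to 0.14 (UCK2) and −0.26 to 0.12 (UMPS), and for drug-loaded MNs over NS −0.14 to 0.15 (UCK2). The cause was not tested. Alternatives for called genes outside the list of members were added after the data were seen. Depth limits TYMP, DPYD rested on 1 to 35 reads per sample, and 3 samples a group limit DPYD and the rest.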

Other observations

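A few more genes of the same lists had groups apart without passing the adjusted threshold. They were named by a small unadjusted p in HS vs NS or 5-Fu injection vs HS, so groups apart there follow in part from the choice. Of all genes, 33.3% had groups apart between HS and NS and 30.3% between 5-Fu injection and HS. Between drug-loaded MNs and HS the share was 18.9%. NT5C3A, a nucleotidase that removes the phosphate from pyrimidine monophosphates, was at 35.1 to 54.0 FPKM in NS, 21.9 to 30.5 in HS, 39.8 to 49.5 with drug-loaded MNs and 35.0 to 59.1 after 5-Fu injection. Every HS sample was below every other sample, with limma adjusted p-values of 0.0545 against NS, 0.324 against drug-loaded MNs and 0.0629 against 5-Fu injection. ABCC5, an exporter of nucleotide analogues, was higher in HS (6.89 to 8.38 FPKM) than in NS (4.72 to 6.23) and after 5-Fu injection (5.22 to 6.37), with adjusted p-values of 0.101 and 0.133, and overlapped with drug-loaded MNs (6.47 to 7.11 FPKM). FPGS, which adds glutamates to folates, was at 4.75 to 6.51 FPKM in NS, 3.12 to 4.52 in HS, 3.03 to 4.25 with drug-loaded MNs and 4.84 to 8.91 after 5-Fu injection (adjusted p = 0.0646 for 5-Fu injection over HS).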
